A study of Gallus gallus with 8 samples.

Results

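Connexins are membrane proteins that assemble into hexameric channels, and the channels of neighbouring cells dock into gap junctions through which ions, second messengers and metabolites pass. Pannexin 1 (PANX1) has a similar topology without being related in sequence, and it forms single-membrane channels that release ATP. In the mammalian inner ear, supporting cells are joined by gap junctions built mainly of the proteins of GJB2 and GJB6, and loss of GJB2 function causes deafness. The avian sensory epithelia also hold hair cells and supporting cells, and gap junctions couple the supporting cells there too.

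The set described here consisted of 13 genes of the 15003 named on the array, read by 16 of the 38439 probe sets that were not controls. A probe set was taken when its gene name on the deposited sheet began with GJA, GJB, GJC or GJD or was PANX1, or when its description named a gap junction protein or a connexin. The name picked out 8 of them and the description alone the other 8. They covered 12 connexin genes with 15 probe sets and PANX1 with 1. Of the connexin genes, 3 had 2 probe sets each, namely GJB6, GJD2 and GJD4, and such pairs report on the same gene rather than on separate ones. No probe set carried the name GJB2. On the RefSeq gene list of the chicken assembly GRCg7b, GJB6, GJB2 and GJA3 are neighbours.

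Sensory epithelia of chick inner ears were dissected at embryonic day 20 to 21 from eggs incubated at 38 °C. The 2 groups were the cochlea, the organ of hearing, and the utricle, an organ of balance, with 4 arrays each. No strain, genotype or treatment was given in the labels, in which the arrays of one tissue are numbered as biological replicates. Each array was hybridised with RNA from 10 to 20 pooled epithelia, amplified from an input of 0.08 µg, so an array averages over animals and cell types. Values are log2 signal on a scale that ran from 2.22 to 15.92, on which 1 unit is a 2-fold difference.

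A log2 signal above 4 was reached by 41.0% to 41.8% of probe sets, depending on the array. Arrays correlated at 0.9929 to 0.996 within the utricle, at 0.9945 to 0.9971 within the cochlea and at 0.9619 to 0.9695 between them; these correlations run over probe sets and not over samples. The 6 markers used to check the tissues were above 7 on every array. Among the hair cell markers, MYO7A ranged from 8.31 to 9.07 in the utricle and from 7.51 to 8.002 in the cochlea, and OTOF from 10.60 to 11.65 and from 8.94 to 10.62. Among the supporting cell markers, SOX2 and LFNG were higher in the utricle (adjusted p = 0.000665 and 1.77e-06), and TECTA and TECTB, components of the tectorial membrane, were higher in the cochlea (adjusted p = 0.00267 and 0.000817).

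The cochlea had 2.78-fold more GJA1 signal than the utricle, and the utricle 2.68-fold more PANX1 signal than the cochlea. GJB6 stood near the top of the scale in both tissues, with a difference close to 0. GJC1 was measured in both tissues without a difference past the threshold, GJB1 was near background and brighter in the cochlea, and the other 8 connexin genes stayed under a log2 signal of 4 on every array. Of the 16 probe sets, 5 were above 4 on at least 4 arrays and were tested, and 2 of these 5 were called at an adjusted p under 0.05, 1 in each direction. Over the whole array 51.5% of the 16223 tested probe sets were called, 26.4% with more signal in the utricle and 25.1% with more in the cochlea, so the share among the connexins and PANX1 was no larger than the background. The tissues did not overlap for the same 2 probe sets, against 48.7% of all tested probe sets.

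**Figure D1:**
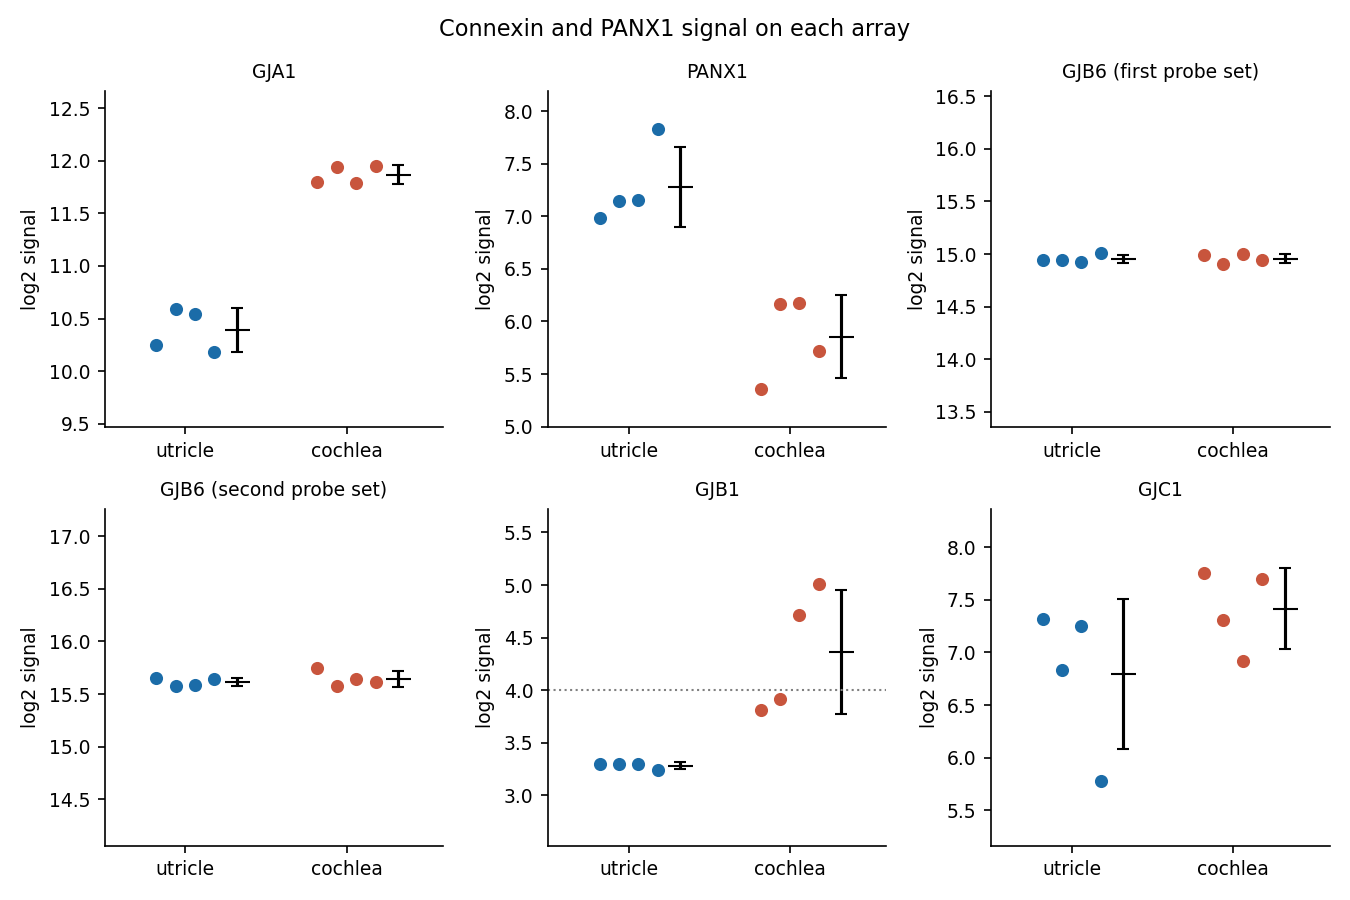
Log2 signal of GJA1, PANX1, both GJB6 probe sets, GJB1 and GJC1 on each of the 4 utricle arrays (blue) and 4 cochlea arrays (red), with the mean and SD beside the points; every panel spans 3.2 log2 units, and the dotted line marks a signal of 4. GJA1 and PANX1 separate the tissues in opposite directions, GJB6 lies flat in both, GJC1 overlaps, and GJB1 passes 4 on 2 cochlea arrays.

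GJA1 encodes Cx43, the most widely expressed connexin. Its probe set (gene ENSGALG00000014873) gave 10.25, 10.59, 10.55 and 10.18 on utricle arrays 1 to 4. On cochlea arrays 1 to 4 it gave 11.79, 11.94, 11.79 and 11.95. Every cochlea array was brighter than every utricle array, with a gap of 1.20 between the nearest 2. The mean was 10.39 ± 0.21 in the utricle and 11.87 ± 0.09 in the cochlea (SD, n = 4 each). The utricle minus cochlea difference was -1.48 (95% confidence interval -1.74 to -1.21, adjusted p = 1.15e-05, limma), a 2.78-fold difference (interval 2.32 to 3.35). An exact two-sided permutation test over the 70 splits of the 8 arrays gave p = 0.0286, the smallest it can give. As in all permutation tests here, the splits ignored the replicate numbers that the tissues share. The authors' deposited table lists the same probe set as higher in the cochlea, 2.71-fold with a q-value of 0%. Among all tested probe sets, 12.9% differed between the tissues by a larger amount. In these pooled tissues, a lower signal from fewer cells that express a gene and one from less RNA per cell cannot be told apart. By its suffix, _s_at, this is a probe set whose probes can match more than 1 transcript, and cross-hybridisation was not tested.

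PANX1 was read by 1 probe set (gene ENSGALG00000017213). The utricle arrays 1 to 4 gave 6.98, 7.14, 7.15 and 7.83. The cochlea arrays 1 to 4 gave 5.36, 6.17, 6.17 and 5.72. All utricle arrays lay above all cochlea arrays, by at least 0.81. The mean was 7.28 ± 0.38 in the utricle and 5.85 ± 0.39 in the cochlea (SD, n = 4 each), a larger spread than that of GJA1. The difference of 1.42 (0.88 to 1.97, adjusted p = 0.00114) corresponds to 2.68-fold, with an interval from 1.84 to 3.92. The exact two-sided permutation p was again 0.0286, the smallest possible. The authors' deposited table gives PANX1 as higher in the utricle, 2.68-fold with a q-value of 0%. Among all tested probe sets, 13.7% differed by more. Utricle array 4 was the brightest for PANX1 and the dimmest for GJA1, and without it the differences were 1.24 and -1.41, both still called. The other pannexins were not members and served for comparison. PANX2 was at 2.22 on every array. The brighter of the PANX3 probe sets stayed between 3.02 and 3.77, with present detection calls on 4 arrays of each tissue.

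**Figure D2:**
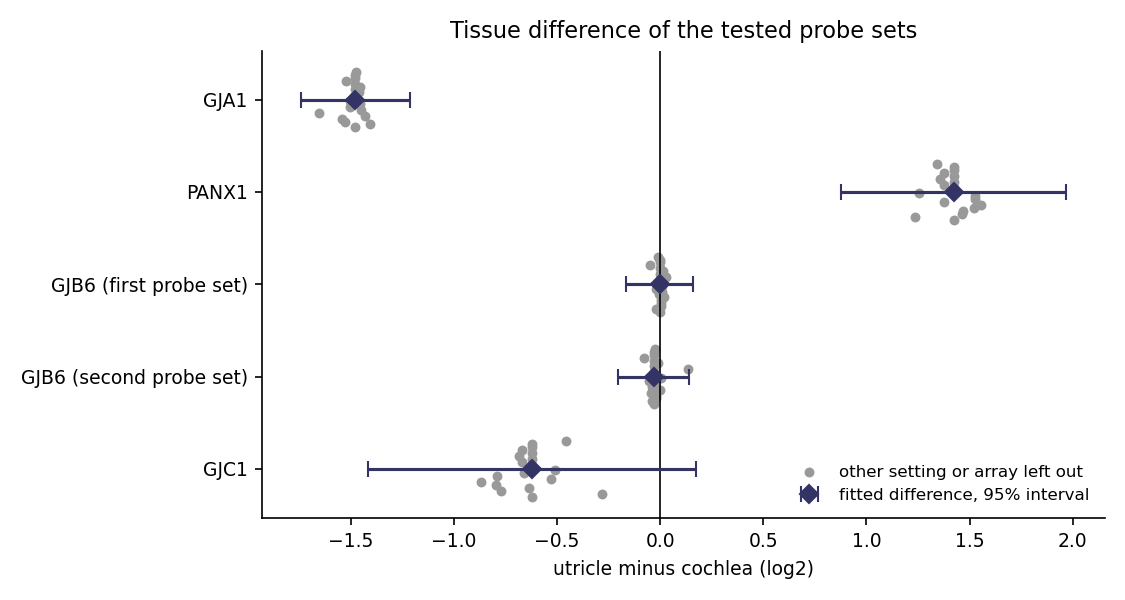
Utricle minus cochlea difference (log2) of the 5 tested probe sets: the diamond is the limma estimate with its 95% interval, and the grey points are the values with another processing setting or with arrays left out. GJA1 stays below 0 and PANX1 above 0 in every setting shown, both GJB6 probe sets lie around 0, and GJC1 spreads widely on the negative side. The tissues do not overlap for GJA1 and PANX1, so leaving out arrays could not move them across 0.

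GJB6 encodes Cx30, one of the main gap junction proteins of the mammalian cochlea. The first of its probe sets (gene ENSGALG00000017136) gave 14.94, 14.94, 14.93 and 15.01 on utricle arrays 1 to 4. The same probe set gave 14.99, 14.90, 14.996 and 14.94 on the cochlea arrays. The second gave 15.65, 15.58, 15.59 and 15.64 in the utricle. Its cochlea values were 15.74, 15.57, 15.64 and 15.61. The tissues overlapped throughout for both probe sets, and the SDs within a tissue were between 0.03 and 0.07. The difference was -0.0021 (-0.16 to 0.16, adjusted p = 0.984) for the first and -0.031 (-0.20 to 0.14, adjusted p = 0.756) for the second. These intervals allow a utricle level between 0.892 and 1.12 times that of the cochlea by the first probe set, and between 0.869 and 1.10 times by the second. The exact permutation p-values were 0.971 and 0.600. All values lay near the top of the scale, where the brightest probe set of any array reached 15.92, and whether signal still follows the amount of RNA there was not tested. With a further quantile normalization the differences became 0.030 and 0.13, neither of them called.

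GJC1 encodes Cx45, a connexin of heart, smooth muscle and the developing nervous system. The name follows the deposited description (gap junction gamma-1), and the RefSeq table lists GJC1 as a synonym under the symbol GJC3. Its probe set (gene ENSGALG00000000997) gave 7.32, 6.84, 7.25 and 5.78 on utricle arrays 1 to 4. It gave 7.75, 7.31, 6.91 and 7.69 on cochlea arrays 1 to 4. The ranges overlapped, and 1 of the 4 same-numbered pairs was higher in the utricle. The difference of -0.62 (-1.42 to 0.17, adjusted p = 0.168) did not pass the threshold, and the exact permutation p was 0.143. The interval reaches from a utricle level 0.375 times that of the cochlea to one 1.13 times as high. Utricle array 4 was the dimmest by more than 1 unit, and without it the difference was -0.28 (adjusted p = 0.344). The adjusted p ranged from 0.109 to 0.448 over the settings tried.

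GJB1 encodes Cx32, known from liver and from myelinating Schwann cells. Its probe set (gene ENSGALG00000005541) gave 3.30 on utricle arrays 1, 2 and 3 and 3.24 on array 4. On the cochlea arrays it gave 3.81, 3.92, 4.72 and 5.01. Only 2 cochlea arrays passed 4, so it was not among the tested probe sets, yet the tissues did not overlap and detection calls were present on all 8 arrays. With values under 4 raised to 4, the cochlea exceeded the utricle 1.35-fold. Cochlea arrays 1 and 2 were raised too, so this is not a lower bound. The exact permutation p was 0.0286, the smallest possible, a value that follows from the lack of overlap and adds nothing to it. Apart from GJB1, this test was run on tested probe sets only. Without any level filter the difference was -1.08 (-1.78 to -0.38, adjusted p = 0.0475), and on the authors' list of detected probe sets the adjusted p was 0.0225. The authors' deposited table lists GJB1 as higher in the cochlea, 2.43-fold with a q-value of 0%.

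The remaining 10 probe sets, of 8 connexin genes, never passed 4, as did 54.9% of all probe sets, and their values lay between 2.22 and 2.48. Among them were those of GJA3 and GJA10 (connexins of lens and retina in mammals), GJA4 and GJA5 (vascular connexins), GJD2 (Cx36, the connexin of electrical synapses) and GJD4. No difference can be read at this level, since the values repeat a background of about 2.22 on most arrays. The authors' list of detected probe sets, which holds 42% of all, rests on detection calls of the array maker's MAS 5.0 algorithm, which compares matched with mismatched probes and is not bound to the log2 scale. Of the 16 probe sets, 8 are on that list. They are the 5 tested ones and GJB1, all called present on 8 arrays, and 2 of the 10 that never passed 4. Among all probe sets that never passed 4, 18% are listed.

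These 2 probe sets belong to GJD2 and GJA5. The GJD2 probe set listed under the gene number 395273 was called present on all 4 utricle arrays and on 0 cochlea arrays. Of all listed probe sets 1.44%, and of the listed ones that never passed 4, 1.97% had that pattern of calls. Its signal was 2.38 on utricle array 1 and 2.22 on the other 7 arrays, so the calls have no counterpart in the level. The other GJD2 probe set is not on the list. GJA5 was called present on 2 utricle arrays and marginal on 1, with 2.48 on utricle array 4 and 2.22 on the other 7 arrays.

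For the surroundings of these channels, 5 lists of partner genes were read at the level of genes, each from its brightest tested probe set. Of 119 listed genes, 99 had a named probe set and 65 were tested. Of these 65, 18 were called with more signal in the utricle and 26 with more in the cochlea, and 21 were not called. The share called, 67.7%, stands beside 54.4% of all 8482 tested genes, of which 27.3% had more signal in the utricle and 27.1% more in the cochlea. The median difference was -0.11 over the lists and 0.0053 over all genes. No test of a list was made, and these counts describe the genes listed.

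**Figure D3:**
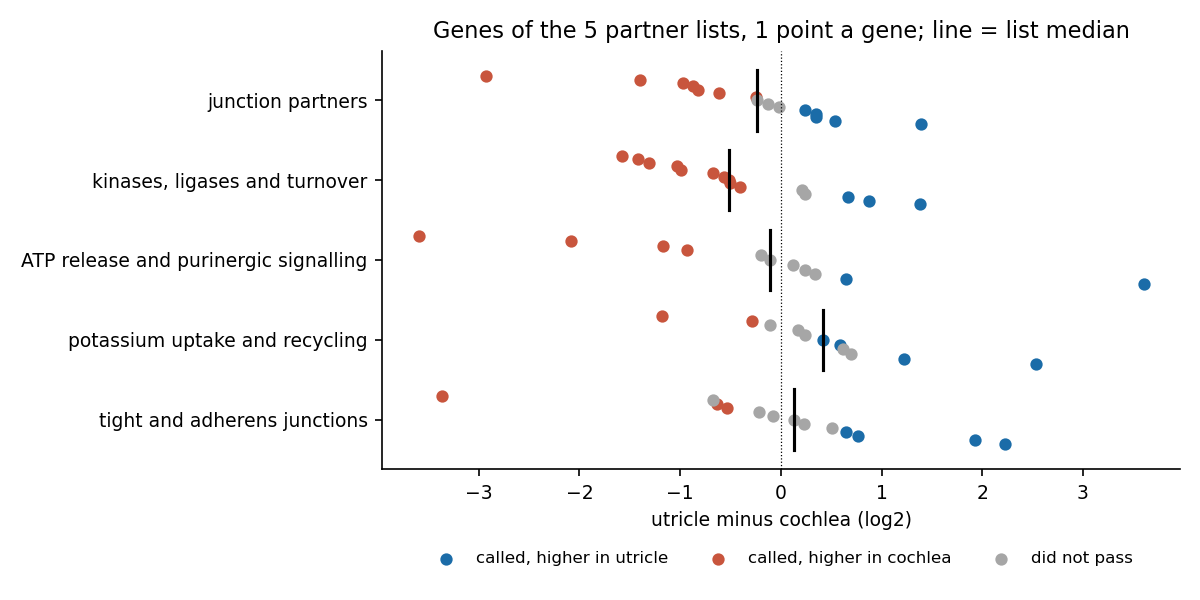
Utricle minus cochlea difference (log2) of each tested gene in the 5 partner lists, coloured blue where the gene was called with more signal in the utricle, red for the cochlea and grey where it was not called, with the list median as a black line. The kinases and turnover genes lie mostly on the cochlea side with a median of -0.51, and the potassium genes have a median of 0.42.

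The first list held proteins that bind Cx43 or support its plaques. Of 15 tested genes, the utricle had more signal for 5 and the cochlea for 7, while 3 were not called, and the median was -0.24. TJP1, which encodes ZO-1, the scaffold at the edge of Cx43 plaques, was 9.05 ± 0.20 in the utricle and 7.65 ± 0.32 in the cochlea, a difference of 1.39 (adjusted p = 0.00017). CCN3, a secreted protein that can bind the tail of Cx43, differed most in this list, 7.60-fold, with 10.88 ± 0.56 in the cochlea against 7.96 ± 0.47 (adjusted p = 6.87e-05). The tubulin gene TUBA1A and the actin-binding cortactin gene CTTN also had more signal in the cochlea, 2.63-fold and 1.96-fold. The membrane linker EZR, the cadherin CDH2 and the deubiquitinase USP8 were higher in the utricle by 1.45-fold, 1.28-fold and 1.27-fold. Of the 2 tested CDH2 probe sets, 1 was called. Beta-catenin (CTNNB1), CTNNA1 and occludin (OCLN) did not pass, although CTNNA1 was called with the replicate number as a block (adjusted p = 0.0453), and CAV1 and DBN1 were at 2.22 in both tissues.

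The second list held kinases, phosphatase subunits and ubiquitin ligases known to act on Cx43. Of 15 tested genes, the cochlea had more signal for 10 and the utricle for 3, while 2 were not called, and the median was -0.51. The ubiquitin ligase WWP1 had 2.98-fold more signal in the cochlea (7.03 ± 0.21 against 5.45 ± 0.17, adjusted p = 1.46e-05). The kinases CAMK2G and AKT1 had 1.98-fold and 2.04-fold more signal in the cochlea, and the phosphatase subunit PPP2CA 1.43-fold. Of the 3 tested PPP2CA probe sets, 2 were called. In the utricle, the protein kinase C gene PRKCD was 2.61-fold higher (9.77 ± 0.25 against 8.39 ± 0.16, adjusted p = 4.87e-05). NEDD4, a ubiquitin ligase that removes Cx43 from the membrane, was 1.84-fold higher there, and 1 of its 2 tested probe sets was called. CDK1, which phosphorylates Cx43 in mitosis, exceeded the cochlea by 1.59-fold in the utricle (adjusted p = 0.047), a call lost in 15 of the settings tried, among them the replicate block (adjusted p = 0.0896).

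The third list held the release of ATP and the purinergic receptors, ectoenzymes and calcium store proteins downstream. Of 30 genes with a probe set, 19 were not above 4 on 4 arrays, among them P2RX1, P2RX2, P2RX3, P2RX7 and P2RY1, each at 2.22 in both tissues. Of the 11 tested, the utricle had more signal for 2 and the cochlea for 4, while 5 were not called, and the median was -0.11. The largest differences were of related ectoenzymes that hydrolyse extracellular nucleotides. For ENTPD3 the utricle led at least 11.9-fold (7.77 ± 0.30 against 4.17 ± 0.29), and for ENTPD8 the cochlea led at least 6.98-fold (6.80 ± 0.43 against 3.21 ± 0.07). The ATP-gated channel P2RX4 had 2.26-fold more signal in the cochlea (7.25 ± 0.54 against 6.07 ± 0.30, adjusted p = 0.00563). The phospholipase PLCG1 and the calcium release channel ITPR2 exceeded the utricle by 4.24-fold and 1.91-fold in the cochlea. The phospholipase PLCB4 had 1.57-fold more signal in the utricle (adjusted p = 0.0178), a call lost without utricle array 3, which left 1 gene of the list called there.

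The fourth list held channels and transporters of potassium uptake and recycling, together with the anion exchanger SLC26A4. Of 11 tested genes, the utricle had more signal for 4 and the cochlea for 2, while 5 were not called, and the median was 0.42. The sodium pump subunit ATP1B1 had 2.26-fold more signal in the cochlea (14.24 ± 0.19 against 13.06 ± 0.19, adjusted p = 7.77e-05). For SLC26A4 the utricle led at least 1.99-fold, and there it ranged from 4.77 to 5.38, against 2.46 on all cochlea arrays. Closer to the threshold, the channels KCNJ2 (adjusted p = 0.0254) and KCNK5 (0.0306) and the cotransporter SLC12A7 (0.0431) were higher in the utricle. The tissues overlapped for KCNK5 and SLC12A7, and SLC12A7 lay near 4 (4.03 to 4.96 against 3.70 to 4.06 in the cochlea). With the replicate number as a block, 6 genes were called for the utricle, and without the level filter 1 was. Leaving out cochlea array 1 or 2, or utricle array 3 or 4, left 2 genes called for the utricle. Leaving out any utricle array, or cochlea array 2, 3 or 4, left 1 called for the cochlea.

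The fifth list held tight and adherens junction genes. Of 13 tested, the utricle had more signal for 4 and the cochlea for 3, while 6 were not called, and the median was 0.13. The tight junction gene JAM2 was 3.81-fold and the desmosome gene DSP 4.68-fold higher in the utricle. PKP2 and CLDN3 followed with 1.57-fold and 1.70-fold. CLDN5, known from endothelial tight junctions, led at least 8.86-fold in the cochlea (7.28 ± 0.38 against 3.92 ± 0.42, adjusted p = 6.81e-06). CTNNA2 and TJP3 had 1.45-fold and 1.55-fold more signal in the cochlea.

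Since GJA1, GJB1 and PANX1 are also expressed outside the sensory epithelium, 12 lists of cell type markers were read on the same arrays. The level of a list is the log2 of its summed signal. The brightest genes weigh most in it, and it does not measure the amount of a cell type. Hair cell markers had a summed level of 14.17 to 14.65 on the utricle arrays and 12.72 to 13.16 on the cochlea arrays. Of 10 tested genes, 6 were called for the utricle and 3 for the cochlea. PTPRQ was the brightest hair cell marker in the utricle (13.25 against 10.18 in the cochlea). ISL1 was the brightest gene of the neuron list in both tissues, and which cells its signal came from was not tested. For supporting cells the ranges were 16.12 to 16.20 and 16.13 to 16.42, with 6 of 11 called for the utricle and 5 for the cochlea. On the side of GJA1 and GJB1, the summed level was higher in the cochlea for cartilage markers (14.66 to 15.33 against 14.20 to 14.57, 5 of 8 tested genes called for the cochlea and 2 for the utricle). The same held for neuron markers (14.42 to 14.71 against 11.97 to 12.50, 4 of 7 called for the cochlea and 2 for the utricle) and for muscle markers (8.57 to 9.22 against 6.74 to 7.64, 1 of 1). Of the cartilage genes, CNMD (12.32 ± 0.57 in the cochlea against 7.11 ± 0.91 in the utricle), HAPLN1 (11.81 ± 0.07 against 7.495 ± 0.14) and COL9A3 (13.85 ± 0.29 against 11.36 ± 0.17) had the largest differences toward the cochlea. ACAN and COL9A1 were higher in the utricle, and MATN1 was at 2.22 in both tissues. Of the neuron genes, the neurofilament gene NEFM was at 12.83 ± 0.04 in the cochlea against 2.59 ± 0.19 in the utricle, NEFL at 9.82 ± 0.23 against 7.24 ± 0.38 and ISL1 at 13.86 ± 0.22 against 11.90 ± 0.33. NTRK2 was also higher in the cochlea, SNAP25 and NTRK3 were higher in the utricle, and STMN2 was at 2.22 in both tissues. The called muscle gene was ACTA1, at 8.68 ± 0.32 in the cochlea against 6.87 ± 0.50, while ACTC1, MYL1, MYOG and DES were at 2.22 in both tissues. On the side of PANX1, the summed level was higher in the utricle for leukocyte markers (11.98 to 12.28 against 10.74 to 11.21). CD74, CSF1R and CD3E were higher in the utricle and LY86 in the cochlea, which makes 3 of 4 called for the utricle and 1 for the cochlea. The leukocyte markers PTPRC, SPI1 and IRF8 were not tested and lay near background. Their utricle and cochlea means were 2.32 and 2.51, 2.31 and 2.22, and 2.79 and 2.81. The summed level was also higher in the utricle for melanocyte markers (9.64 to 10.04 against 8.01 to 8.37, 2 of 2). MITF was at 9.70 ± 0.18 in the utricle against 8.05 ± 0.19 in the cochlea and DCT at 4.59 ± 0.29 against 2.79 ± 0.29. DCT was above 4 in the utricle alone, so the level filter fixed the direction of its call. TYRP1, which was not tested, had means of 4.10 and 3.04, and TYR, PMEL and MLANA were at 2.22 in both tissues. The part of these cells in the differences of GJA1, GJB1 and PANX1 was not tested.

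**Figure D4:**
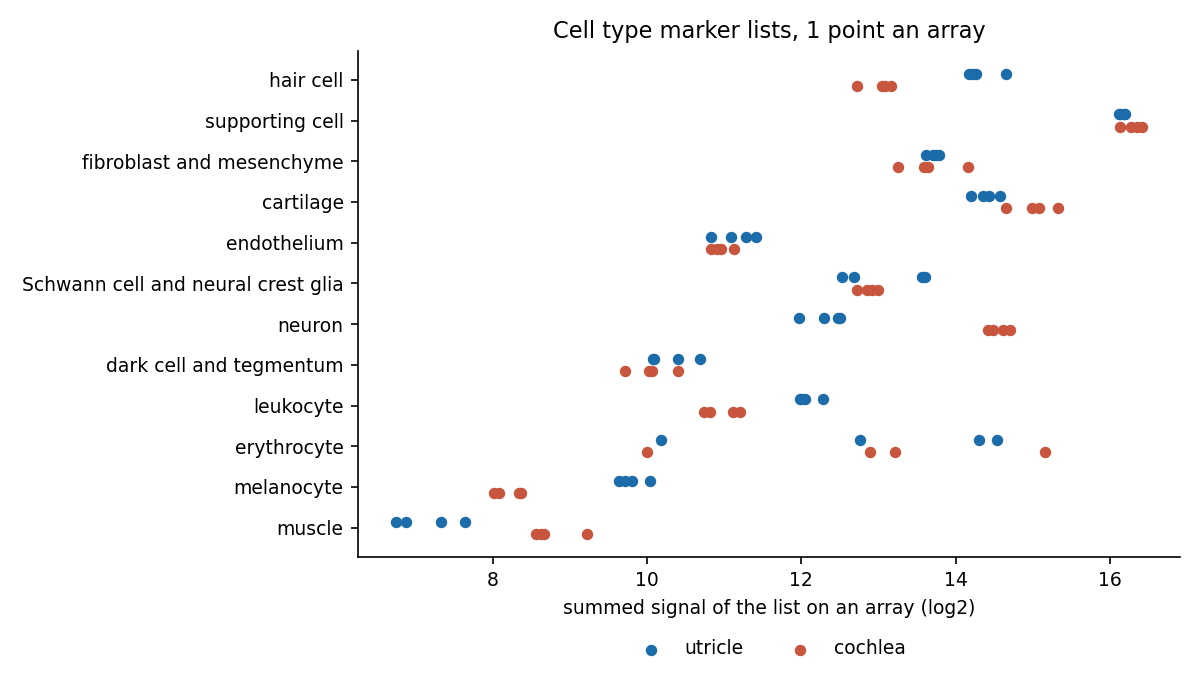
Summed signal (log2) of each cell type marker list on the 4 utricle arrays (blue) and the 4 cochlea arrays (red). The tissues separate for the hair cell, cartilage, neuron, leukocyte, melanocyte and muscle lists and overlap for the other 6.

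For the other 5 lists the ranges overlapped. Fibroblast and mesenchyme markers summed to 13.62 to 13.78 in the utricle and 13.26 to 14.16 in the cochlea. Of 7 tested genes, 3 were called for the utricle (COL3A1, COL6A3 and FBLN1) and 1 for the cochlea (MGP). COL3A1 was near the threshold (adjusted p = 0.0495), and the tissues overlapped for it. Its call was lost with the replicate block, and 0 of its 2 tested probe sets were called when adjusted over all probe sets. TWIST2, PDGFRA, PDGFRB and TBX18 were at 2.22 in both tissues. Schwann cell and neural crest markers, the cells in which GJB1 is best known, summed to 12.53 to 13.60 and 12.73 to 13.001, with 1 of 6 called in each direction. Utricle arrays 2 and 3 had the highest sums (13.60 and 13.57) and also the brightest GJA1 signal of the utricle (10.59 and 10.55). A link was not tested. Endothelium markers summed to 10.83 to 11.41 and 10.83 to 11.13, with 1 of 2 called in each direction, PECAM1 for the utricle and EGFL7 for the cochlea. The tissues overlapped for both genes, and 1 of the 5 tested PECAM1 probe sets was called. KDR, TIE1 and ESAM were at 2.22 in both tissues. Dark cell and tegmentum markers (10.07 to 10.68 and 9.71 to 10.40, 0 of 2 called) and erythrocyte markers (10.18 to 14.53 and 10.00 to 15.16, 0 of 4 called) overlapped as well.

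Genes with the most similar pattern over the 8 arrays were found by the root mean square distance of mean-centred log2 values, among 6547 other tested genes with a symbol. This distance includes the tissue difference, so genes with a tissue difference of like size stand near. Shared regulation was not tested. Nearest to GJA1 was the homeobox gene NKX6-1 at a distance of 0.082, with 7.29 ± 0.25 in the utricle and 8.74 ± 0.10 in the cochlea. MOB2, GNG5, DYNLL1 and HAGH followed at 0.088, 0.094, 0.11 and 0.12, each 1.43 to 1.54 log2 units higher in the cochlea. Nearest to PANX1 was RPGR, a gene of the photoreceptor cilium, at 0.19, with 6.52 ± 0.24 in the utricle and 4.97 ± 0.36 in the cochlea. TJP1, already named as a partner of Cx43, was the second at 0.21, followed by CCND3, ZNF827 and KIRREL3 at 0.21, 0.23 and 0.24. The neighbours of PANX1 lay farther off than those of GJA1, beside the larger spread of PANX1 within each tissue.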

How the data were processed

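RNA from 4 utricle and 4 cochlea samples was hybridised to Affymetrix chicken arrays. The authors deposited log2 signal made with GCRMA, per the submitters' processing notes, by GC-based background correction, quantile normalization and median polish, per the notes in their workbook. Their workbook holds, for its list of detected probe sets, detection calls per array (present, marginal or undetectable). For those called with SAM, the authors give a fold, as a ratio, and a q-value as a percent. Log2 values of the series table equal those of the workbook to within 1.78e-15. A further 128 columns of values per array were not used. The number of arrays, 4 per tissue, limits the precision.

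The connexins, PANX1 and all gene lists were chosen with earlier results of these data known. Control probe sets (96) were left out. The deposited sheet named no gene for 14107 probe sets. Names were updated through the RefSeq table of GRCg7b for 18126 probe sets, and 51 probe sets of 33 genes, GJA1, GJC1 and CCN3 among them, took their names by hand from the deposited sheet's descriptions. For GJC1 that name differs from the RefSeq symbol, GJC3. Probe sets above a log2 signal of 4 on at least 4 of 8 arrays were tested by limma 3.58.1 (lmFit, then eBayes; R 4.3.3) as a two-sided comparison of utricle minus cochlea, with Benjamini-Hochberg adjustment over all tested and calls at an adjusted p under 0.05. Genes were read from their brightest tested probe set and adjusted over all genes. Folds against a tissue with any array under 4 are lower bounds, with values under 4 raised to 4, a rule set with the data known. GJB1 is an exception, since arrays of its brighter tissue were raised as well. Some genes were above 4 throughout the brighter tissue and under 4 throughout the other, among them ENTPD8, SLC26A4, ACAN, NEFM, NTRK2, NTRK3 and DCT. For such genes the level filter fixed the direction of any call, and they are part of the counts. Tables were made with Python 3.11.15, pandas 2.3.3, numpy 2.4.6 and matplotlib 3.10.9. The p-values weigh the tissue difference against the spread between arrays of a tissue. The labels do not say whether the replicates of a tissue came from separate batches of animals.

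The rule names all probe sets of the connexins and PANX1, up to 4 called genes per direction with the smallest adjusted p from each partner list, and for GJA1 and PANX1 the 5 genes of the most similar pattern. Some genes that the rule names are counted but not reported here. The marker genes named, and partner genes given as not passing or at 2.22, were chosen after their values were seen.

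The tissues share replicate numbers. Same-numbered arrays deviated together from their tissue means, with correlations of 0.552, 0.48, 0.404 and 0.144 for numbers 1 to 4. All exceed 0.1, the limit for taking the numbers as pairs. The values printed are from the fit without pairs. Partner genes whose call changed with the replicate number as a block are named. Among the marker genes, the block ended the call of COL3A1 (adjusted p = 0.0628). It gave a call to SOX9 (adjusted p = 0.0392) and SLC12A2 (adjusted p = 0.0367). The labels do not state that equal numbers are pairs, so the pairing rests on these correlations, and for array 4 another pair correlated higher (0.304). The array names repeat some sample numbers in both tissues but not all, and their meaning is not given. The array names carry 2 prefixes, and the arrays numbered 1 are those under the smaller.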

Additional observations from a re-analysis of the deposited data

Results flagged for a closer look

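Of the 16 sets of 4 arrays in which a connexin or PANX1 probe set varied at all, 5 had an array far from the other 3. Chance gives about 1 in 20 where values spread freely. That rate does not apply to 4 of the 5, in which the other arrays repeat a background value, or nearly so, and any deviation stands out. These are GJA5 with 2.48 on utricle array 4, GJD2 with 2.38 on utricle array 1, GJB1 with 3.24 on utricle array 4, and GJD4 with 2.23 on cochlea array 1. The fifth is the first GJB6 probe set, with 15.01 on utricle array 4 against 14.93 to 14.94 on the other 3.

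Among the connexin probe sets that were not tested, 2 had present calls on all 4 arrays of a tissue. GJD2 was called present on 4 utricle arrays and 0 cochlea arrays, and GJB1 on 4 arrays of each.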

How the results depend on the processing

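GJA1 and PANX1 kept their direction and their call in each of the 20 settings tried. Their direction was largely fixed beforehand. Settings that changed only the filter, the block or the way the variance was estimated returned the same difference. The tissues did not overlap, so leaving out or weighting arrays could not turn the sign. GJA1 ranged from -1.65 to -1.41 (adjusted p up to 0.000345) and PANX1 from 1.24 to 1.55 (up to 0.0117). Within the larger array-name prefix, with 3 arrays of each tissue, the differences were -1.45 for GJA1, 1.36 for PANX1 and -0.69 for GJC1, and under the smaller, with 1 array of each and no test, -1.55, 1.63 and -0.43. The replicate block gave adjusted p = 0.000169 for GJA1, 0.00251 for PANX1 and 0.179 for GJC1 and changed no call among the connexins and PANX1. Among the partner genes, the block added 6 calls (CTNNA1, CSNK1D, KCNJ16, SLC12A2, CGN and AFDN) and ended those of VCL (adjusted p = 0.0704) and CDK1. GJC1 and both GJB6 probe sets were called in no setting. The sign of the first GJB6 probe set turned within the larger prefix (0.013) and with quantile normalization (0.030). The same happened without utricle arrays 2 and 3, in which CALB1, a gene bright in the cochlea, was above 4 (0.018, a setting added after seeing the data). Its difference ranged from -0.021 to 0.011 with single arrays left out. The second turned with quantile normalization (0.13) and ranged from -0.054 to 0.0029 with single arrays left out. The cause was not tested. The partner lists together had 12 to 21 genes called higher in the utricle and 21 to 27 in the cochlea, and 13 of the 44 called genes lost the call in at least 1 setting that tested them. In addition, 9 called genes, NEDD4, SLC26A4 and TJP3 among them, were not tested with the filter at 6 and 1 was not tested on the detected list. Together 19 of the 44 lost the call or were not tested in at least 1 setting. Over the whole array, 3034 to 4855 probe sets were called higher in the utricle and 3076 to 4583 in the cochlea. Signals near 2.22, where most connexins lay, and near the top, where GJB6 lay, limit what these arrays can show.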
